A study of Mus musculus with 2 samples.

Results

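The genes described here are 8 genes of the actin and vimentin cytoskeleton, out of 32285 genes counted in each library. They are Tmsb4x and Tmsb10, which encode thymosins, the actin genes Actb and Actg1, Pfn1 (profilin), Cfl1 (cofilin), Vim (vimentin) and Lsp1. They were listed by symbol, and each symbol matched 1 gene in both libraries. Earlier results of the same libraries, a lower level in more mature erythroid cells and a difference by genotype, were used to choose them. Both contrasts are therefore given below as descriptions, and the other splits of the same cells carry no test either.

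Actin cycles between single subunits and filaments. Thymosins hold subunits in reserve, profilin hands them to growing filament ends, and cofilin cuts and disassembles old filaments. Vimentin forms intermediate filaments in blood progenitors and is known to be shut off as red cells mature, when a short-filament actin and spectrin skeleton is built under the membrane. LSP1 is an actin-binding protein of white blood cells, and beta-actin is also a subunit of BAF chromatin remodelling complexes, the family to which BRD9 belongs.

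In mm10 coordinates of the GENCODE M21 annotation, Tmsb4x lies at chrX:167207093-167209315 on the minus strand and Tmsb10 at chr6:72957347-72958748 on the minus strand. Actb lies at chr5:142903115-142906754 (minus), Actg1 at chr11:120345690-120348542 (minus) and Pfn1 at chr11:70651850-70654644 (minus). Cfl1 lies at chr19:5490455-5495201 (plus), Vim at chr2:13573927-13582826 (plus) and Lsp1 at chr7:142460809-142494867 (plus). All 8 genes are annotated as protein coding, and their UMIs come from polyadenylated 3' ends.

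Tmsb4x, Tmsb10 and Actg1 had lower levels in late than in early erythroid cells in both libraries, and only Tmsb4x of the 3 differed by genotype beyond the fold used here, so their upstream sequences are shown side by side. The stretches come from RefSeq windows of 250 bases before a start site in GRCm38.p6, read 5′ to 3′ on the gene's strand. Bases inside an annotated exon of the gene were left out, which leaves chrX:167209316-167209468 (153 bases) for Tmsb4x, chr6:72958749-72958998 (250 bases) for Tmsb10 and chr11:120348543-120348745 (203 bases) for Actg1. Capitals mark a CArG box, the sequence bound by serum response factor.
Tmsb4x: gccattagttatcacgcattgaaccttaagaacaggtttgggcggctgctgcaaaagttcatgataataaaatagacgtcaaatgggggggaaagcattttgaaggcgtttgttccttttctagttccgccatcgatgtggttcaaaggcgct
Tmsb10: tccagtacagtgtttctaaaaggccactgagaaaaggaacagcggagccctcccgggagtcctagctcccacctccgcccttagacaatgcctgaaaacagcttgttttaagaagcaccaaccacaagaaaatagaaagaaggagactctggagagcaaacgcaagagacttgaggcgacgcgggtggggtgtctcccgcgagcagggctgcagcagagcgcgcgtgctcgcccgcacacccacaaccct
Actg1: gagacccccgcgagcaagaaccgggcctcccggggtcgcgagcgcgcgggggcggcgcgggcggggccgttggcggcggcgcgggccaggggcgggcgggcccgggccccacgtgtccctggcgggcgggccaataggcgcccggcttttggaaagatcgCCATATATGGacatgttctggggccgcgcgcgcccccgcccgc

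The windows of 6 of the 8 genes were in the RefSeq table, and each was searched on both strands for the CArG box, for TATAAA and for AGATAA. A CArG box was found in the Actg1 window alone of these 6 genes, starting 90 bases before the start site, and 1.47% of 32851 windows of that length held one. TATAAA was found in the Vim window alone, 32 bases before its start site, against 12.4% of windows. AGATAA, a form of the GATA motif, was in none of these genes' windows and in 9.99% of all windows. Other forms were not searched for, and the Tmsb4x stretch shown above holds TGATAA, so GATA motifs are not called absent. The motifs do not overlap, and a match describes the letters of a window, not a bound site.

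The cells are from C57BL/6 mouse fetal liver at E14.5, enriched for cells that lack lineage markers and carry the Kit receptor, and were profiled with the 10x Genomics 3' chemistry (v3.1). The library labelled knockout has the genotype CD45.2(+) Vav1-iCre Brd9fl/fl, and the control library CD45.2(+) Brd9fl/fl, so both carry the floxed Brd9 alleles. Vav1-iCre is a recombinase transgene active in blood cells, and BRD9 is the bromodomain protein that sets the non-canonical form of BAF apart. With no library that carries the recombinase without floxed Brd9, the recombinase and the loss of Brd9 cannot be told apart. Each genotype has 1 library, and the sources used here do not give its number of embryos. No difference can therefore be set against a spread between replicates, and p-values are not printed. Intervals are exact 95% intervals and cover counting error only.

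Kept cells numbered 6860 in the control and 6757 in the knockout library, with medians of 38485.5 and 36007 UMIs, and 16 barcodes occurred in both libraries. Levels are given as CPM, the summed UMIs of a gene per 1e6 UMIs of the same cells. Brd9 stood at 27.2 CPM in control and 7.06 CPM in knockout cells. Which exons are floxed is not given, so the 3' tags may lie outside the deleted part. By Xist, 23.0% of control and 58.9% of knockout cells were female, so the mix of sexes differed between the libraries. Clusters were built without the 8 genes and without the cytoskeleton lists, and class names stand for cells like the named type. Of 18 erythroid markers, 18 were detected in the erythroid class of each library, with a summed level of 9014 CPM in the control and 7705 CPM in the knockout. All 18 were also detected in every other control class compared, so detection alone does not set the erythroid class apart. The sums in the other classes lay between 309 and 1232 CPM in the control and between 402 and 1083 CPM in the knockout.

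The erythroid class held 4969 control and 4905 knockout cells. It was ordered by the share of alpha-globin UMIs (Hba-a1 and Hba-a2), a measure of maturity, and cut over both libraries together into 3 equal groups, called early, middle and late, or into 10 stage bins. The early group held 1576 control and 1715 knockout cells, the middle group 1786 and 1505, and the late group 1607 and 1685. The erythroid marker sum, which includes the globins, was also lower in the knockout within each group, at 2395 against 2966 CPM in early, 4508 against 5667 CPM in middle and 17272 against 20706 CPM in late cells. Its part in the genotype differences below was not tested.

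Free RNA in the droplets adds UMIs of genes that a cell does not express. Mpo, a granulocyte gene that erythroid cells should lack, served as a reference: its level in erythroid cells was 10.4 CPM in the control and 6.35 CPM in the knockout, against 4743 and 3575 CPM in the granulocyte class. If free RNA had the composition of the whole library, this Mpo level would go with 22.5 CPM (control) and 26.6 CPM (knockout) of Tmsb4x, with 5.78 and 7.07 CPM of Tmsb10, with 2.45 and 2.31 CPM of Vim and with 0.498 and 0.446 CPM of Lsp1. These are called the Mpo-scaled levels below, and they rest on that assumption and on 1 gene.

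Over this order the thymosins, Actg1 and Vim were lower by more than 1 on the log2 scale in both libraries, while Actb, Pfn1 and Cfl1 were lower by less and Lsp1 was near 0 CPM throughout. Of the 7 genes with at least 20 CPM in either stage group, 4 were lower by at least 1 in the control and 4 in the knockout library. Among all genes at that level, 3.94% (control) and 3.39% (knockout) were lower by as much. Stage was part of how the genes were chosen, so nothing is read from that contrast. The medians of all genes were -0.09 and -0.07. These counts depend on which cells enter: with erythroid cells gated by their marker level per cell instead of by cluster, which keeps 3392 control and 2758 knockout cells, 0 of the genes with at least 20 CPM were lower by 1 or more in either library.

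**Figure D1:**
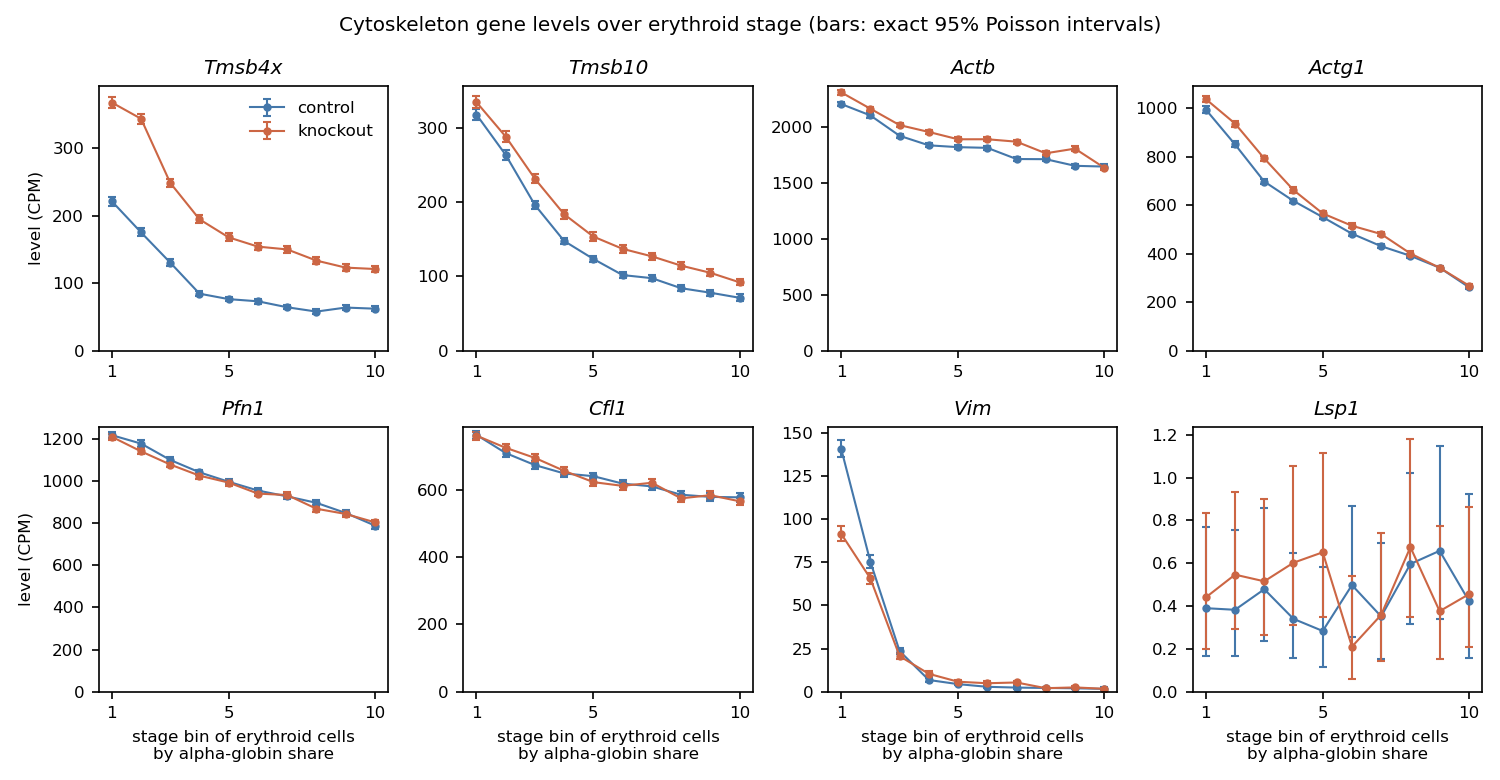
Level (CPM, vertical axis from 0) of each of the 8 genes in 10 stage bins of erythroid cells, from the lowest (1) to the highest (10) alpha-globin share, in the control (blue) and knockout (orange) library, with exact 95% Poisson intervals. The Tmsb4x curve of the knockout lies above that of the control in every bin, from 368 against 222 CPM in bin 1 to 121 against 62.2 CPM in bin 10.

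Tmsb4x encodes thymosin beta-4, the main actin-sequestering peptide of many blood cells. In the control library it stood at 164 CPM in early, 74.5 CPM in middle and 61.1 CPM in late erythroid cells. In the knockout library the same groups had 307 CPM, 165 CPM and 130.0 CPM. The Mpo-scaled level lay between 21.1 and 30.6 CPM in these 6 groups, which is a sizeable part of the late control level. Each knockout group was above the control group of the same stage, and the late knockout group was above the middle control group. Late over early gave a log2 ratio of -1.42 (-1.48 to -1.37) in the control and -1.24 (-1.28 to -1.21) in the knockout. In the 10 stage bins the control level came down over bins 1 to 4, from 222 to 84.4 CPM, and then lay between 57.8 and 76.3 CPM. The knockout level went from 368 CPM in bin 1 to 195 CPM in bin 4, and was 121 CPM in bin 10. The knockout level in bin 10 was therefore above the control level in bin 4.

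Tmsb10 encodes thymosin beta-10, a close relative with the same actin-binding role. It stood at 244 CPM, 117 CPM and 80.2 CPM in early, middle and late control cells and at 275 CPM, 149 CPM and 106 CPM in the knockout. The knockout was higher at each stage, by a smaller margin than for Tmsb4x. The late over early ratio was -1.61 (-1.65 to -1.56) in the control and -1.38 (-1.42 to -1.34) in the knockout. The 3' end of Tmsb10 matches 6 other annotated genes at 95% identity or more over at least 90 bases. Of those only Gm9844 was in the count table, with 989 UMIs against 143557 for Tmsb10. How many Tmsb10 reads were assigned elsewhere or left uncounted cannot be told from these counts.

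Pfn1 encodes profilin 1, which exchanges the nucleotide on actin subunits and delivers them to filament ends. Its level was 1151 CPM in early, 979 CPM in middle and 859 CPM in late control cells, and 1131 CPM, 971 CPM and 847 CPM in the knockout. The libraries differed by at most 0.02 on the log2 scale in each stage group, and the late over early ratio was -0.42 in both. Per cell, the middle 50% of early cells lay between 987 and 1298 CPM in the control and between 976 and 1291 CPM in the knockout.

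Actb encodes beta-actin. It stood at 2044 CPM in early and 1681 CPM in late control cells, and at 2143 CPM and 1748 CPM in the knockout, with ratios of -0.28 and -0.29. Actg1 encodes gamma-actin, a near-identical protein. Its level was 817 CPM in early, 521 CPM in middle and 348 CPM in late control cells, and 899 CPM, 548 CPM and 351 CPM in the knockout. The late over early ratio of Actg1 was -1.23 (-1.25 to -1.21) in the control and -1.36 (-1.38 to -1.34) in the knockout, so the 2 cytoplasmic actin genes differed in their slope within each library. In bin 10 the 2 libraries were close, with 262 CPM (control) and 268 CPM (knockout) for Actg1 and 1647 and 1637 CPM for Actb.

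Cfl1 encodes cofilin 1, which cuts filaments. It stood at 707 CPM in early and 581 CPM in late control cells and at 721 CPM and 579.99 CPM in the knockout, ratios of -0.28 and -0.31. Its 3' end shares a matching stretch with 1 other gene of the count table, Arcn1, which had 37761 UMIs against 399777 for Cfl1.

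Vim had the steepest slope of the 8 genes in these cells. In the control library it stood at 69.0 CPM in early, 4.08 CPM in middle and 1.97 CPM in late cells. The knockout groups had 53.5 CPM, 6.33 CPM and 2.72 CPM. Vim was thus lower in the knockout than in the control in the early group. In late cells the Mpo-scaled level was 2.47 CPM (control) and 1.98 CPM (knockout), so the late values are at about the level of background and are not read as expression. In the middle group it was 2.30 and 2.66 CPM, a large part of the measured level. The late over early ratio was -5.13 (-5.40 to -4.87) in the control and -4.30 (-4.53 to -4.08) in the knockout, and its size depends on that background. Within the early group the level was 141 CPM in control bin 1 and 75.2 CPM in bin 2, against 91.5 and 65.6 CPM in the knockout.

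The share of cells behind these Vim levels was nearly the same in both libraries. A Vim UMI was found in 48.9% of early control (46.4 to 51.4) and 49.5% of early knockout cells (47.1 to 51.9). After thinning every cell to 18526 UMIs the shares were 36.6% and 36.0%, with 30 and 32 shallower cells left out. In late cells the shares were 6.78% and 5.82%, below the 31.3% and 17.5% of the same cells with an Mpo UMI. The late UMIs were few and unevenly spread: of 121 control UMIs 23.1% were in the top 1% of cells, and of 171 knockout UMIs 52.6% were. The single highest late cell of the knockout held 12.9% of them.

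Lsp1 was at the lower limit of what these libraries show in erythroid cells. It had 94 UMIs in all control and 98 in all knockout erythroid cells, or 0.434 and 0.485 CPM. The level did not differ beyond counting error between early (0.423 CPM) and late cells (0.505 CPM) of the control, with a ratio of 0.26 (-0.51 to 1.02). Both levels are close to the Mpo-scaled levels of 0.498 and 0.446 CPM, and Lsp1 in erythroid cells is read as background.

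By genotype, over all erythroid cells, Tmsb4x was the gene that differed most. Its level was 101 CPM (21849 UMIs) in the control and 206 CPM (41635 UMIs) in the knockout, a 2.04-fold difference and a log2 ratio of 1.03 (1.01 to 1.05). Tmsb4x ranked 4 from the highest among 6036 genes that reached 20 CPM in 1 or both libraries. Of the 7 genes at that level, 1 (Tmsb4x) was higher by at least 0.5, and 0 were lower by as much. Among all genes at that level, 0.414% were higher and 0.58% lower past the same fold. The genes were chosen partly on this contrast, so these shares stand beside the count and support nothing.

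The Tmsb4x difference was present across the range of single cells. The lower quartile, median and upper quartile over erythroid cells were 28.2, 65.9 and 127 CPM in the control and 73.5, 148 and 265 CPM in the knockout. The median knockout cell was above the upper quartile of the control. A Tmsb4x UMI was found in 86.5% of control (85.5 to 87.4) and 95.3% of knockout cells (94.7 to 95.9), and after thinning in 68.4% and 86.7%. No class lacks Tmsb4x, so Mpo is given as the reference: an Mpo UMI was found in 33.8% of control and 19.1% of knockout erythroid cells, and after thinning in 16.6% and 9.39%, at median depths of 41212 and 38994 UMIs. Part of the cells with a Tmsb4x UMI may therefore hold free RNA only, and the shares are not read as shares of expressing cells. The Mpo-scaled level of Tmsb4x was 22.5 CPM in the control and 26.6 CPM in the knockout, beside measured levels of 101 and 206 CPM.

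By stage, the Tmsb4x ratio was 0.91 (0.88 to 0.94) in early, 1.14 (1.10 to 1.19) in middle and 1.09 (1.03 to 1.15) in late cells. In each stage group it was again the only gene with at least 20 CPM past 0.5, beside 0.445%, 0.544% and 0.476% of all genes. Tmsb10 followed with 0.28 (0.26 to 0.30) over all erythroid cells, from 149.8 to 182 CPM, and with 0.17, 0.34 and 0.40 by stage. The other genes gave smaller values over all erythroid cells: 0.10 for Actg1, 0.07 for Actb, 0.01 for Cfl1, -0.02 for Pfn1 and -0.18 (-0.24 to -0.12) for Vim. The median over all genes was 0.03, and 5% of them were below -0.16 and 5% above 0.19.

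Markers of other cell types within the erythroid class were compared between the libraries, since Tmsb4x was higher in every other class compared here. Macrophages, eosinophils, T and NK cells, hepatocytes, endothelium and stroma were not among those classes, so their Tmsb4x level is not given. The 10 megakaryocyte markers summed to 9.60 CPM in the control and 11.5 CPM in the knockout, 8 of 10 were above 0, and Ppbp and Gp6 were at 0 in both. The 13 granulocyte markers, all detected, summed to 36.0 and 20.6 CPM, and the 9 mast and basophil markers to 10.2 and 3.99 CPM, with 8 of 9 above 0 in each library (Fcer1a at 0 in the control, Cma1 in the knockout). The 9 monocyte markers summed to 3.09 and 2.69 CPM, all above 0 in the control and 8 of 9 in the knockout, where Siglech was at 0. The 8 macrophage markers summed to 0.914 and 0.530 CPM, all above 0 in the control and 7 of 8 in the knockout, where Vcam1 was at 0. Lymphoid-primed markers (9 of 10 above 0 in the control, with Rag1 at 0, and 10 of 10 in the knockout) summed to 1.92 and 1.81 CPM, and the 4 eosinophil markers, all detected, to 0.767 and 0.381 CPM. Sums that were higher in the knockout were those of T and NK cells (0.873 and 1.47 CPM, 4 of 6 above 0, Cd3e and Gzma at 0), of endothelium (2.04 and 2.55 CPM, 7 of 7), of hepatocytes (4.32 and 4.69 CPM, 7 of 7) and of stroma (0.808 and 0.866 CPM, 7 of 8 in the control, with Des at 0, and 8 of 8). The markers of stem and multipotent progenitors summed to 225 and 210 CPM and those of megakaryocyte-erythroid progenitors to 443 and 334 CPM, all above 0. Tmsb4x was higher in the knockout, as were the megakaryocyte, T and NK, endothelial, hepatocyte and stromal sums, while the other sums were lower. Their part in the difference was not tested.

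**Figure D2:**
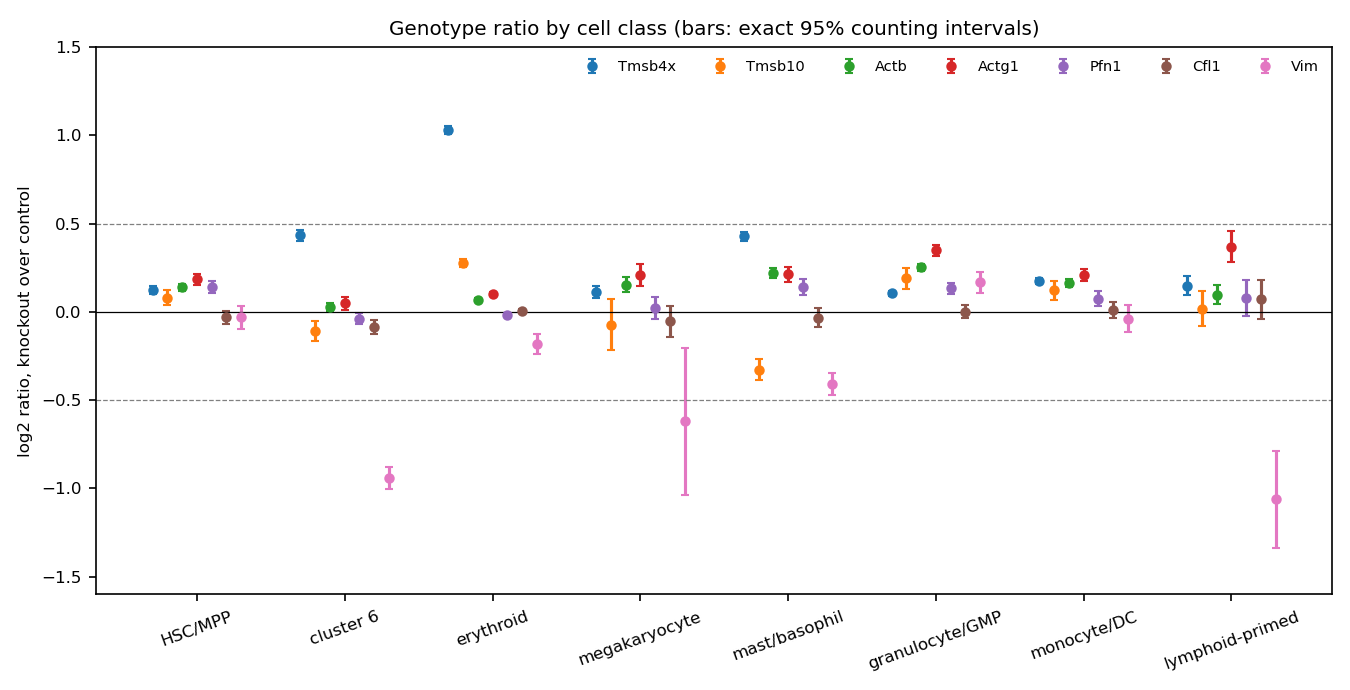
Log2 ratio of the knockout over the control level (vertical axis) for 7 of the 8 genes in each cell class, with exact 95% counting intervals and dashed lines at 0.5 and -0.5; Lsp1 is left out for its low counts in most classes. Tmsb4x in erythroid cells is the only point above 0.5, at 1.03, and Vim is below -0.5 in cluster 6, in megakaryocytes and in lymphoid-primed cells.

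Outside the erythroid class, Tmsb4x was between 1197 CPM and 6370 CPM in control cells and between 1617 CPM and 6885 CPM in knockout cells. In order of rising control level it stood at 1197 CPM in cluster 6, 2569 CPM in HSC/MPP (stem and multipotent progenitors), 3504 CPM in mast and basophil cells, and 4574 CPM in lymphoid-primed cells. It then stood at 5743 CPM in monocyte and dendritic cells, 6000.5 CPM in the granulocyte class and 6370 CPM in megakaryocytes. Control erythroid cells, at 101 CPM, were thus below every other class, and the intervals of neighbouring classes in this order do not overlap. Cluster 6 has Prkg1 and Muc13 among its leading genes. It has 3 markers of megakaryocyte-erythroid progenitors among its top 30 genes by fold but 0 among the top 10, so it is called by its number.

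The genotype ratio of Tmsb4x was smaller in each of these classes than in erythroid cells. It was 0.43 (0.40 to 0.47) in cluster 6, from 1197 to 1617 CPM, and 0.43 (0.40 to 0.45) in mast and basophil cells, from 3504 to 4715 CPM. In the other 5 classes it lay between 0.11 (granulocyte class, megakaryocytes) and 0.17 (monocyte and dendritic cells). Over all cells of the libraries together the ratio was 0.07, from 951 to 996 CPM, and erythroid cells held 21849 of the 261166 control and 41635 of the 253477 knockout UMIs of Tmsb4x. The knockout library held fewer granulocyte-class cells (342 against 527), monocyte and dendritic cells (169 against 286) and HSC/MPP (441 against 488). It held more cells of cluster 6 (483 against 287), mast and basophil cells (274 against 181) and megakaryocytes (87 against 65). Lymphoid-primed cells numbered 54 against 53. The part of this mix in the ratio over all cells was not tested.

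**Figure D3:**
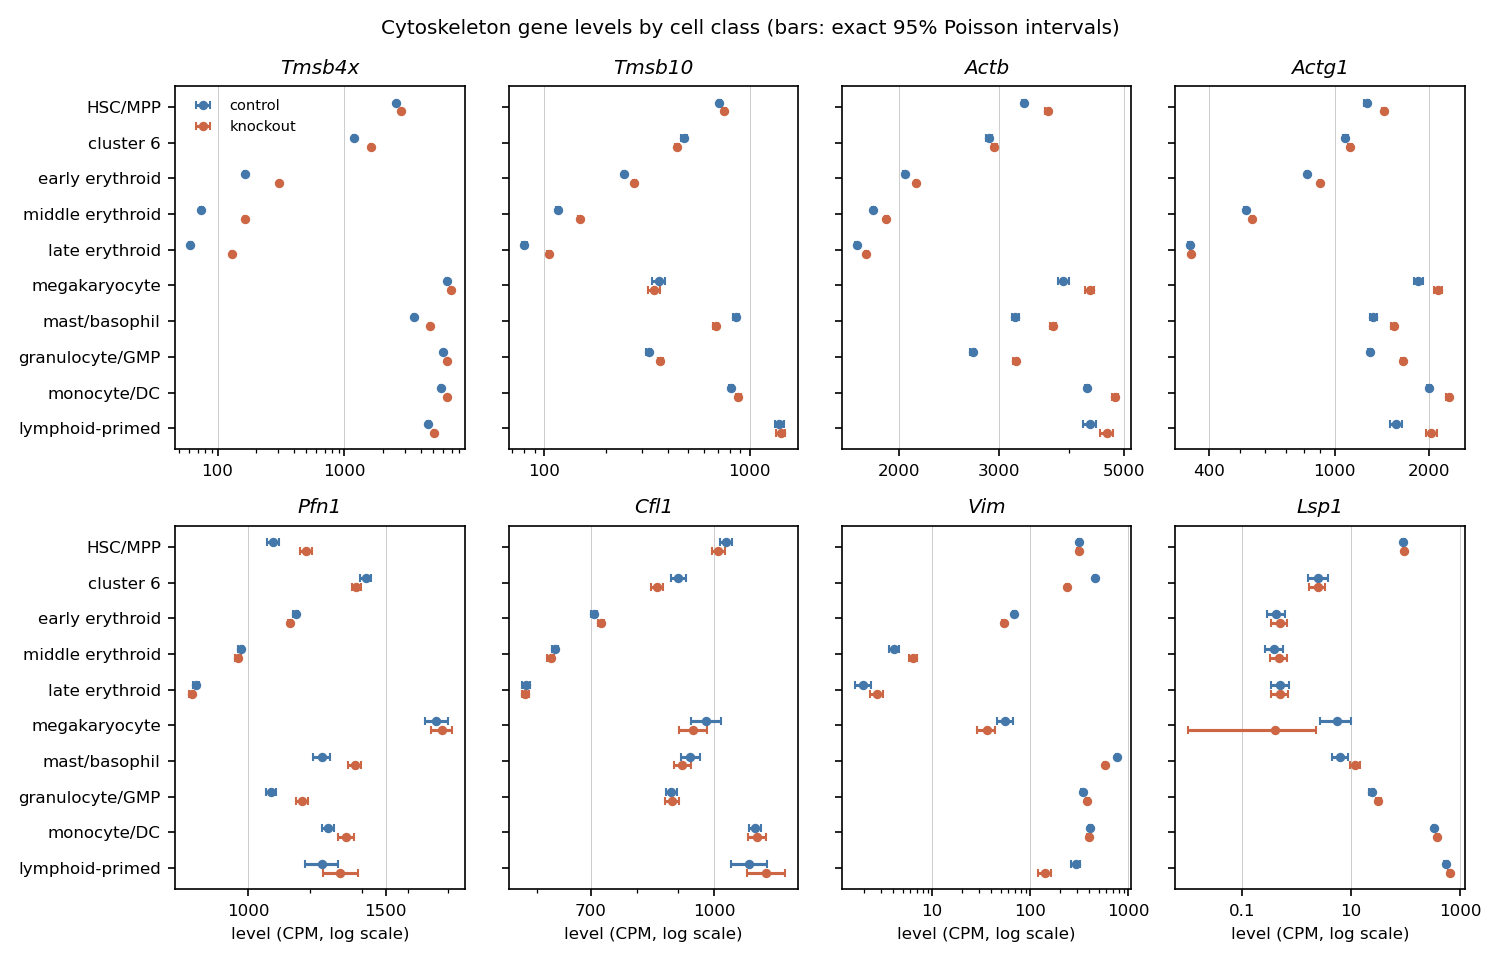
Level (CPM, horizontal log axis that differs between panels) of each of the 8 genes in each cell class and erythroid stage group, in the control (blue) and knockout (orange) library, with exact 95% Poisson intervals. Late erythroid cells have the lowest level of 7 of the 8 genes in the control library, and Lsp1 is above 90 CPM only in HSC/MPP, monocyte and lymphoid-primed cells.

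Vim was lower in the knockout by at least 0.5 in 3 classes. In cluster 6 it stood at 460.2 CPM in the control and 240.0 CPM in the knockout, a ratio of -0.94 (-1.003 to -0.88), and the median cell had 384 and 184 CPM. Vim was the only gene of the set lower by at least 0.5 there, beside 0.873% of all genes with at least 20 CPM. The make-up of cluster 6 also differed between the libraries. Its 7 markers of megakaryocyte-erythroid progenitors summed to 2417 CPM in 287 control cells and 1484 CPM in 483 knockout cells. The part of this make-up in the Vim and Tmsb4x ratios of the cluster was not tested. In lymphoid-primed cells Vim stood at 293 and 140.3 CPM (-1.06, -1.34 to -0.79), from 53 and 54 cells, where 6.47% of all genes were lower by as much. In megakaryocytes it stood at 55.1 and 35.9 CPM (-0.62, -1.04 to -0.20), beside 2.64% of all genes.

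The megakaryocyte and lymphoid-primed values rest on few cells. A single control cell held 26.1% of the 111 Vim UMIs of megakaryocytes and another 20% of the 370 Vim UMIs of lymphoid-primed cells. In HSC/MPP the Vim ratio was -0.03 (318 against 311 CPM), in monocyte and dendritic cells -0.04, in mast and basophil cells -0.41, from 766 to 578 CPM, and in the granulocyte class 0.17, from 342 to 384 CPM. Vim thus differed in sign between classes.

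The actin genes were slightly higher in the knockout in every class built from clusters, though Actg1 gave -0.08 in erythroid cells gated by marker level. Among all genes with at least 20 CPM, the share above 0 lay between 52.5% (monocyte and dendritic cells) and 63.6% (erythroid cells). Actg1 ranged from 0.05 in cluster 6 to 0.35 in the granulocyte class (1294 to 1646 CPM) and 0.37 in lymphoid-primed cells (1569 to 2028 CPM). Actb ranged from 0.03 in cluster 6 to 0.25 in the granulocyte class, from 2701 to 3216 CPM. Of all genes at that level, 5% were above 0.34 in the granulocyte class and 5% above 0.72 in lymphoid-primed cells. Pfn1 gave between -0.04 and 0.14 and Cfl1 between -0.09 and 0.07 over the 8 classes. Tmsb10 did not follow Tmsb4x everywhere: in mast and basophil cells it was lower in the knockout (-0.33, from 858 to 684 CPM), and in cluster 6 it gave -0.11, where Tmsb4x was higher. In mast and basophil cells 5% of all genes were below -0.32. Their own markers summed to 1223 CPM (control) and 1044 CPM (knockout). Markers of megakaryocyte-erythroid progenitors summed to 2206 and 1322 CPM there, and those of stem and multipotent progenitors to 852 and 912 CPM. The part of this make-up in the ratios of the class was not tested.

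Lsp1, outside the erythroid class, was at 549 CPM in control lymphoid-primed cells, 327 CPM in monocyte and dendritic cells, 90.7 CPM in HSC/MPP and 23.7 CPM in the granulocyte class. The knockout levels were 647 CPM, 386 CPM, 94.4 CPM and 31.7 CPM, giving ratios of 0.24, 0.24, 0.06 and 0.42. The knockout level was the higher in each, within counting error in HSC/MPP (-0.06 to 0.18). In megakaryocytes Lsp1 had 11 UMIs in the control, 72.7% of them in 1 cell, and 1 UMI in the knockout, and in cluster 6 it had 24 and 37.

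Since Tmsb4x is X-linked and the libraries differ in their share of female cells, levels were compared within cells of 1 sex. In female erythroid cells Tmsb4x stood at 105 CPM in the control and 208 CPM in the knockout (0.99). In male erythroid cells it stood at 99.3 and 198 CPM (0.998). Female over male cells gave 0.08 in the control and 0.07 in the knockout, so the genotype difference within each sex was larger than the difference between the sexes. Of 176 X-linked genes with at least 20 CPM, 5 were higher in the knockout by 0.5 or more, beside 25 of all 6036 genes. Within female cells the count was 4 of 177 and within male cells 3 of 172. Tmsb4x, chosen partly on this contrast, is in each of these counts, so nothing is read from the share of X-linked genes. The median ratio of the X-linked genes was 0.02. Tmsb10 gave 0.32 within female and 0.23 within male cells.

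The Tmsb4x difference was of similar size in cells of both phase calls. In erythroid cells called S phase (753 control, 651 knockout) Tmsb4x stood at 107 and 212 CPM, a ratio of 0.99 (0.92 to 1.05), and in those called G2/M (4213 and 4249) at 99.6 and 205 CPM, a ratio of 1.04 (1.02 to 1.07). Vim gave -0.43 (-0.57 to -0.30) in S-phase and -0.11 (-0.17 to -0.04) in G2/M cells, intervals that do not overlap. Nearly all erythroid cells received 1 of these calls, and no cycling is read from the calls.

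Within single cells, correlations between the thymosins, and of thymosins and actins with Vim, were lower in late than in early erythroid cells. Late cells hold few thymosin and Vim UMIs. Correlations among Actb, Actg1, Pfn1 and Cfl1 differed less. Over all erythroid cells of the control, thinned to equal depth, Pearson's r of log values was 0.40 for Tmsb4x with Vim, 0.31 for Tmsb4x with Tmsb10 and 0.33 for Actb with Actg1. In early control cells the same pairs gave 0.44, 0.32 and 0.32, and in late control cells 0.02, 0.01 and 0.16. The knockout gave 0.38, 0.33 and 0.34 over all erythroid cells, 0.40, 0.31 and 0.33 in early cells and 0.09, 0.07 and 0.15 in late cells. Actb with Cfl1 gave 0.25 in early and 0.21 in late control cells, and 0.19 and 0.14 in the knockout. For Actg1 with Vim the early and late values were 0.39 and 0.01 in the control, and 0.37 and 0.06 in the knockout. The cells of a library share its depth and free RNA, and these values are given as a description. In the granulocyte class of the control, Tmsb4x and Tmsb10 had r of -0.53, and in that of the knockout -0.07.

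The genes whose levels followed Tmsb4x most closely over the 20 stage bins of both libraries, out of 6563 genes with at least 20 CPM in a bin, were Sept6 (r = 0.98), Galk2, Xpo7, Csrp2 and Prdx1 (each at 0.97). Sept6, a septin gene that is also X-linked, went from 33.9 to 7.72 CPM between bins 1 and 10 of the control and from 52.7 to 17.2 CPM in the knockout. For Vim they were Sh3bgrl3, Parm1, Gmfg, Crip1 and Srgn (each at 0.99). Gmfg, a regulator of actin branch points, went from 59.8 to 2.12 CPM in the control and from 46.8 to 2.07 CPM in the knockout. The 20 bins share 2 libraries and 1 ordering, and the values are descriptions.

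The other cytoskeleton genes came from lists chosen, like the 8 genes, with earlier results known. In erythroid cells, 0 of the genes with at least 20 CPM in the lists described here were higher in the knockout by 0.5 or more, beside the 0.414% of all genes given above. Of all 6036 genes with at least 20 CPM, 63.6% were above 0, a share that stands beside the counts above 0 in each list. In the list of other actin-subunit binders, 4 genes had that level and 1 was above 0, with a median of -0.01. Dstn (destrin, a cofilin relative) gave -0.11, Cap1 0.11, Twf1 (twinfilin) -0.02 and Cfl2 -0.00. The other thymosin genes of that list were under 20 CPM.

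Among 13 nucleation genes 8 were above and 5 below 0, with a median of 0.03, beside 63.6% of all genes above 0. Arpc1b, a subunit of the Arp2/3 complex that starts filament branches, had the highest ratio of this list at 0.40, from 66.5 to 87.6 CPM. The formin gene Diaph1 gave 0.25, and the Arp2/3 core genes Actr2 and Actr3 gave 0.13 and 0.10. Among 10 capping and crosslinking genes 9 were above 0, with a median of 0.08, beside the same 63.6% of all genes. The highest were Tagln2 (transgelin 2, which binds actin filaments) at 0.30 from 163 to 201 CPM and Vasp at 0.27. Coro1c gave 0.13 and Capza1 0.10.

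Of 7 myosin and tropomyosin genes 4 were above 0 (median 0.02), with Myh10 at -0.22, Myl12b at 0.14, Tpm3 at 0.12 and Myh9 at 0.07. Of 4 membrane linkers 1 was above 0 (median -0.10), with Ezr at -0.18, Msn at -0.12, Rdx at -0.09 and Nf2 at 0.07. The lamin genes Lmna and Lmnb1, related to vimentin as intermediate filament genes, gave -0.04 and 0.01. No gene of the muscle actin or serum response factor lists had 20 CPM in these cells.

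The genes named from the nucleation and the capping and crosslinking lists differed in their slope with stage. The late over early ratio was -2.20 (control) and -1.89 (knockout) for Arpc1b and -2.05 and -1.59 for Tagln2. For Vasp it was 0.35 and 0.37. A link between the slope with stage and the genotype ratio was not tested.

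The 10 genes of the red cell skeleton, in which short actin filaments join spectrin to the membrane, ran the other way with stage. Of these, 6 were higher in late than in early cells by at least 1 in each library, with medians of 1.64 (control) and 1.78 (knockout), and 0 were lower by as much. Among all genes with at least 20 CPM in either stage group, 5% were above 0.81 in each library. By genotype 6 of the 10 skeleton genes were above and 4 below 0, with a median of 0.06, beside 63.6% of all genes above 0. Add2 (beta-adducin, which caps the short filaments) gave -0.44, Epb42 -0.19 and Tmod1 (tropomodulin 1, which caps the other end) 0.32.

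**Figure D4:**
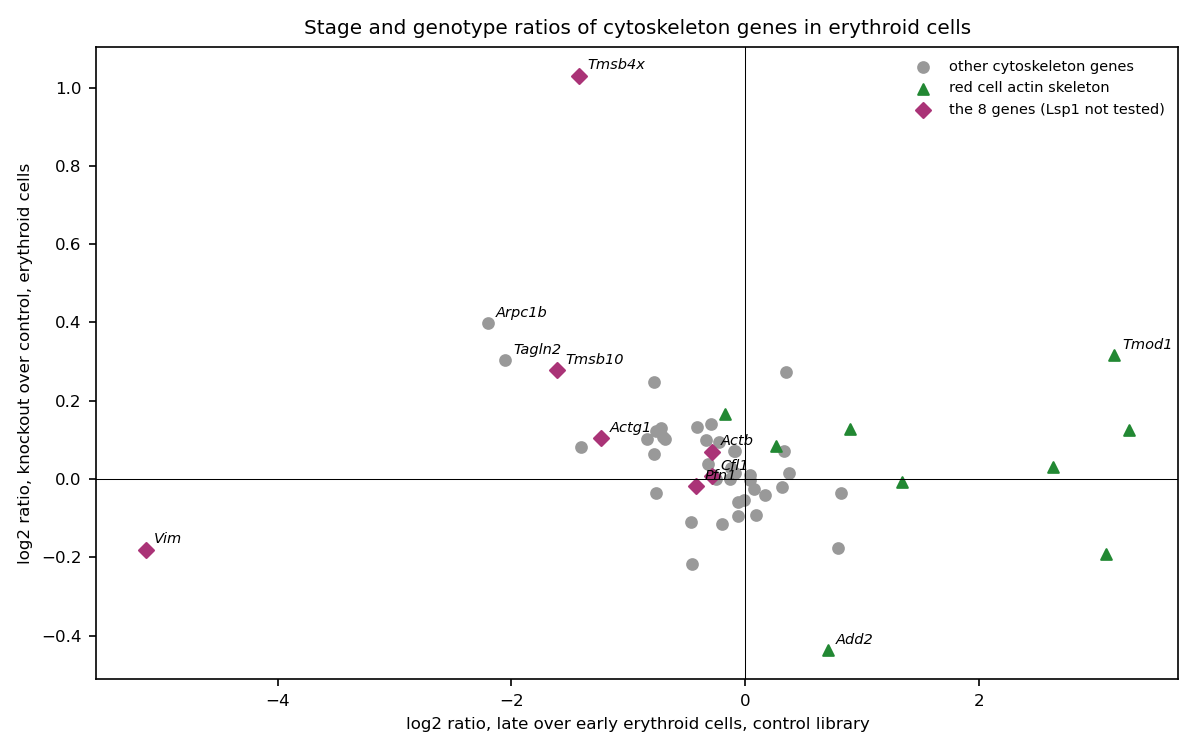
Log2 ratio of the knockout over the control level in erythroid cells (vertical axis) against the log2 ratio of late over early erythroid cells in the control library (horizontal axis), for 7 of the 8 genes (diamonds), genes of the red cell actin skeleton (triangles) and other cytoskeleton genes (circles) with at least 20 CPM, as far as reported here. Among the points drawn, Tmsb4x, at -1.42 and 1.03, stands apart along the vertical axis and Vim, at -5.13, along the horizontal axis.

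Summed, the 8 genes held 0.434% of erythroid UMIs in the control and 0.460% in the knockout. The share in control cells went from 0.520% in early to 0.361% in late cells, and in knockout cells from 0.553% to 0.377%. In HSC/MPP they held 1.04% and 1.13%, and in monocyte and dendritic cells 1.60% and 1.77%. Erythroid cells thus had the smallest share of these genes among the 8 classes in both libraries.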

How the data were processed

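Lineage-negative, Kit-positive cells of fetal liver were measured in 2 libraries, 1 per genotype. The authors deposited UMI counts per gene and barcode, without normalization, made with Cell Ranger 7.2.0 on mm10, per the submitters' processing notes. The handling of intronic reads was not given in the sources used here.

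Barcodes needed 1000 genes and 2000 UMIs or more, with mitochondrial UMIs of 10% or less, which left out 299 control and 288 knockout barcodes. Scrublet in scanpy 1.11.5, run on each library, marked 240 and 244 doublets, which were removed. Cells were clustered over both libraries at Leiden resolution 1 (leidenalg 0.10.2) on 3000 variable genes, 30 components and 15 neighbours, without the 8 genes, the cytoskeleton lists, cell-cycle, Y-linked, mitochondrial and ribosomal protein genes, Xist, Tsix and Brd9. Of 23 clusters, those with at least 3 markers of a list among their top 30 genes by fold took its name. The others were called erythroid where at least 10 of 18 erythroid markers exceeded 2 times their median over clusters of other names. A cluster of 6 hepatocyte-like cells was not compared. Cells with at least 3 Xist UMIs and at most 1 Y-linked UMI were called female, and cells with at most 1 Xist UMI male; 92 control and 140 knockout cells had transcripts of both sexes.

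The UMIs of each class were summed within a library and scaled to CPM. Sums have exact Poisson intervals, ratios conditional exact intervals and shares of cells exact Clopper-Pearson intervals. Genes with at least 20 CPM in either group were counted as past a fold at a log2 ratio of 0.5 (genotype) or 1 (stage). Shares of cells were also computed after thinning to 18526 UMIs. UMIs of 1 cell are not independent of each other, so the intervals understate the spread. The calculation was tested on simulated data. Mpo-scaled levels, added after seeing the data, are a gene's level over all cells of a library times the ratio of Mpo in the erythroid group to Mpo over all cells.

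The 8 genes, the lists and the folds were chosen with earlier results of these data known. The text names the 8 genes, up to 4 genes per cytoskeleton list with the largest genotype ratio either way in erythroid cells, and the 5 genes most like Tmsb4x and Vim over the stage bins by Pearson's r of log2(CPM + 1). Coordinates are from GENCODE M21, which held 32158 of 32285 gene identifiers. Matches of the last 400 bases of each gene's longest coding transcript were found with blastn 2.17.0. The alternatives tried covered scaling, doublets, cell filters, resolution, the erythroid gate, sex, stage mix, the stage measure and the fold. Some genes and results of the lists are not reported here.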

Additional observations from a re-analysis of the deposited data

How the results depend on the processing

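Tmsb4x was higher in the knockout erythroid cells under all 11 alternatives tried, with log2 ratios from 0.98 to 1.06 against 1.03. The values outside the counting interval were 1.01 with median-of-ratios scaling, which centres all genes (median 0.02) at 0, 1.06 with clusters at resolution 0.6, 0.98 with erythroid cells gated by marker level per cell, 0.99 in female and 0.998 in male cells alone, 1.002 with the knockout stage bins weighted to those of the control, and 0.99 as a mean over cells. Leaving out cells with transcripts of both sexes was added after seeing the data. At a log2 ratio of 0.25 in place of 0.5, 2 genes were higher in place of 1. The counts of genes lower with stage stayed at 4 in each library except under the marker gate, which gave 0 in the control and 0 in the knockout. That gate kept fewer cells, and in 2807 of 13617 cells the 2 highest class marker scores lay within 0.1, whichever the classes. Vim then gave -1.02 (control) and -0.81 (knockout) late over early, under 20 CPM, and Tmsb4x -0.34 and -0.32. Under the same gate the genotype ratio of Actg1 was -0.08 in place of 0.10 and that of Cfl1 -0.04 in place of 0.01. Cells outside both the S and G2/M phase calls were too few to be used (3 control, 5 knockout), so that alternative was not run. No paired analysis was possible because each genotype has 1 library and the labels give no replicate numbers.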
